A study of Mus musculus with 10 samples.

Results

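The genes described here encode the proteins of the cytosolic ribosome. They were taken by symbol from the table of transcribed units (TUs, each a segment of 1 strand called as transcribed, with short gaps ignored). Only units of a single gene or a small gene cluster were used. Their symbol is Rpl or Rps followed by a number and an optional letter and digit, or else Rplp0, Rplp1, Rplp2 or Rpsa. This gave 79 genes, of which 78 had more than 10 fragments in at least 2 libraries and were tested among 28459 TUs (14997 of them with a gene). The exception was Rpl3l, a paralog known from striated muscle, with 2 to 8 fragments per library. The 78 genes were 38 of the large subunit, 31 of the small subunit (Rpsa included), 3 of the P stalk and 6 whose symbol marks a paralog. RefSeq lists 84 protein-coding genes with such a symbol, and 6 of these had no TU under their own name: Rpl10a lay wholly inside the unit named Fance, Rpl21 inside Rasl11a, Rpl32l inside a LOC gene, Rpl35 inside Golga1, Rpl36 inside Safb and Rpl41 inside Pa2g4, so they are not described. One member, Rps4l, is a transcribed pseudogene in RefSeq.

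Each ribosome joins a large 60S and a small 40S subunit, built from ribosomal RNA and a set of ribosomal proteins, so the genes for these proteins are transcribed strongly and in proportion in growing cells. Their mRNAs begin with a terminal oligopyrimidine (TOP) tract, through which the mTOR pathway and LARP1 govern their translation. In mouse embryonic stem cells, where growth and division are fast, these genes are among the most heavily transcribed, and MYC family proteins are known to act on genes of ribosome production.

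Nascent RNA was measured by TT_chem-seq, in which new RNA is marked with 4-thiouridine (4SU), fragmented, captured and sequenced. All 10 libraries came from E14 mouse embryonic stem cells that carry the FKBP degron tag on SOX2 (SOX2-FKBP), grown without serum in LIF with inhibitors of MEK and GSK3, and labelled for 10 min with 2 mM 4SU. NT cells (n = 2) received DMSO, and the other groups received 500 nM dTAG-13 for 0.5, 1, 2 or 6 hours (hours post depletion, hpd, n = 2 each), a compound which directs the tagged protein to degradation. The study's methods state that the medium was changed before treatment and depletions of different length were ended at the same time. No untagged cells given dTAG-13 were analysed here, and the labels name no clone and do not say whether replicates were separate cultures, so that p-values measure only the spread between these libraries.

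Libraries held 11131490 to 25854106 fragments, and a member had a mean of 508 to 13822 fragments per library, never fewer than 350. The pluripotency genes of the label were well covered, with all 7 markers checked at 230 fragments or more in each library. Of markers of other cell types, Gata4, Gata6, Sox17, Cdx2, Col1a1 and Thy1 had 0 to 53 fragments, whereas Tfap2c had 356 to 910 and Pdgfrb 118 to 589, and Elf5, T, Mesp1 and Col3a1 named no TU. Sox2 itself lay at 0.063 ± 0.11 (SE, adjusted p = 0.736) on the log2 scale at 6 hpd, which checks no label, since the degron removes the protein and not the transcript.

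To show the starts of these genes, the bases around the RefSeq start (GRCm38.p6) were read for 59 members whose gene is in the promoter table used. The windows run from 15 bases before the start to 15 from the start onwards, 5′ to 3′ on the gene's strand, and capitals mark the longest run of at least 5 C or T counted from a base within 5 bases of the start. The first set are members with a run of at least 8, chosen because their values are given below.
Rps9: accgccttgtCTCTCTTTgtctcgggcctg
Rps10: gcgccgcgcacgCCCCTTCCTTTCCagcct
Rps18: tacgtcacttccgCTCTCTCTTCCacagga
Rpl13a: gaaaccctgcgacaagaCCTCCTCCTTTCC
Rpl14: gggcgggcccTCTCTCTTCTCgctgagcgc
Rplp2: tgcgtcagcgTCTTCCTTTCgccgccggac
Rpl22l1: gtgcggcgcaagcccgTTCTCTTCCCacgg
These lie at chr7:3704026-3704055, plus strand (Rps9), chr17:27635230-27635259, minus strand (Rps10), chr17:33955651-33955680, minus strand (Rps18), chr7:45128731-45128760, minus strand (Rpl13a), chr9:120571502-120571531, plus strand (Rpl14), chr7:141447636-141447665, plus strand (Rplp2) and chr3:28805493-28805522, plus strand (Rpl22l1). The second set has, counted in this way, a run of under 8 or none of 5 or more. It includes the member with the largest fall at 6 hpd with all libraries in the fit (Rpl12) and a pair with small differences (Rpl4 and Rpl22).
Rpl12: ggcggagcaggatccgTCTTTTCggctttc
Rps16: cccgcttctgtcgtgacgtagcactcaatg
Rplp0: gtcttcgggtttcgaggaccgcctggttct
Rpl4: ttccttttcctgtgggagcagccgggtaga
Rpl22: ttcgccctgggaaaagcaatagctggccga
They lie at chr2:32961697-32961726, plus strand (Rpl12), chr7:28350674-28350703, plus strand (Rps16), chr5:115559452-115559481, plus strand (Rplp0), chr9:64173372-64173401, plus strand (Rpl4) and chr4:152325711-152325740, plus strand (Rpl22). A run of at least 8 was found in 18 of the 59 (30.5%), against 5.7% of 27025 genes in the table. Runs that lie before this stretch, like the C and T at the left of the Rpl4 window, are not counted, and an annotated start a few bases off would hide a tract. Within 250 bases before to 50 after the start, on either strand, the ETS motif CCGGAAG stood in 39.0% of the members' promoters (9.1% of all genes), the YY1 motif AAGATGG in 15.3% (6.5%) and the SOX motif CATTGTT in 0 of 59 (3.9%). CCGGAAG ends with the letters AAG with which AAGATGG begins, so that 1 stretch can hold both, and a match is no evidence that a factor binds.

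Levels are given per kb of TU as CPM, fragment counts over the library size, scaled by TMM factors. In NT, the members spread from 2.71 to 74.7 CPM per kb with a median of 13.1. Rpl13a (74.7 CPM per kb), Rpl4 (60.6) and Rpl3 (58.8), all of the large subunit, were highest. Rpl4 and Rpl3 could not be ordered beyond their spread, since the NT libraries of Rpl3 lay on both sides of those of Rpl4, and likewise of those of Rpl10, the next in order. Rpl22 (2.96), Rps27l (2.74) and Rpl39l (2.71) were lowest by the mean, an order not beyond their spread. Rps27l and Rpl39l overlapped between the NT libraries. The NT libraries of Rpl39l, and those of Rpl28 (3.16), the next in order, lay on both sides of those of Rpl22. Medians were 14.1 in the large subunit, 13.4 in the small subunit, 17.8 in the stalk and 6.13 among the paralogs. These levels average over much RNA beyond the gene: the units had a median length of 14.1 kb (2.46 to 75.0) against 3.02 kb for the annotated genes. Of the units, 77 of 78 ran past the annotated end, by a median of 10.3 kb. Only 40 of 78 started within 100 bp of the annotated start, and that of Rplp2 began 4181 bp before it.

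**Figure D1:**
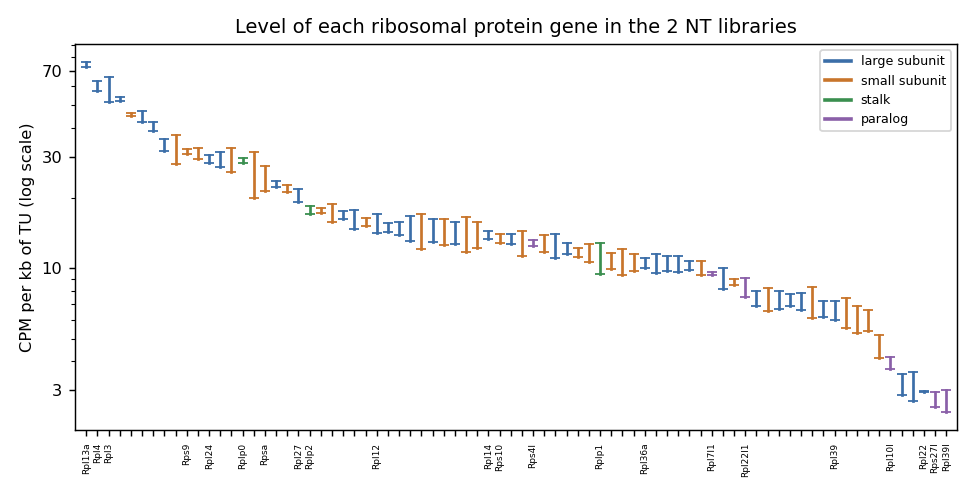
Level of each of the 78 ribosomal protein genes in the 2 NT libraries, as CPM per kb of transcribed unit on a log axis, ordered by the mean; each line joins the 2 libraries, colours give the class and only genes picked by the naming rule are labelled. The order runs from Rpl13a at 74.7 to Rpl39l at 2.71 CPM per kb.

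Before any time point is compared, it has to be said that these genes differed together between replicates. They took 1.50% of the fragments in NT replicate 1 (95% binomial interval, Wilson, 1.499 to 1.51%) and 1.81% in NT replicate 2 (1.80 to 1.82%), intervals which cover counting error only. In the treated libraries the shares were 1.40 and 1.70% (0.5 hpd), 1.35 and 1.46% (1 hpd), 1.21 and 1.48% (2 hpd) and 1.32 and 1.22% (6 hpd). NT replicate 2 thus stood above all others, and replicate 2 above replicate 1 in 4 of the 5 groups. As log2 CPM, 76 of 78 members were higher in NT replicate 2 than in NT replicate 1, by a median of 0.22, and in order of time the treated groups had medians of 0.20, 0.094, 0.15 and -0.057. Over all TUs these medians lay between -0.0014 and 0.030. The part of this shift between libraries in the results was not tested, and the medians, the calls and the members below 0 at each time against NT are given with and without NT replicate 2.

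**Figure D2:**
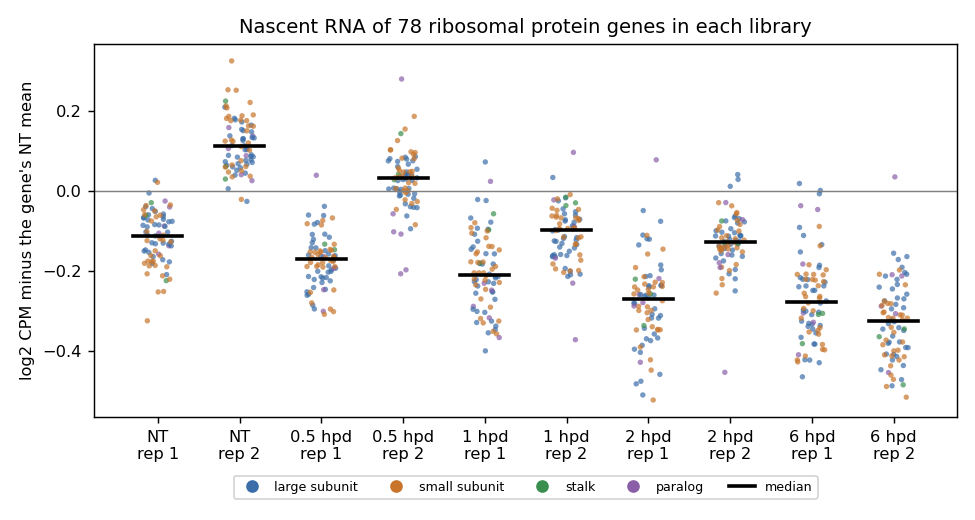
Each point is 1 ribosomal protein gene in 1 library, plotted as log2 CPM minus its mean in the 2 NT libraries; black lines are medians over the 78 genes. Medians were -0.11 and 0.11 in the NT libraries and -0.28 and -0.32 at 6 hpd, with replicate 2 above replicate 1 up to 2 hpd.

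The time points were each set against NT to follow transcription of these genes while SOX2 is lost (edgeR, quasi-likelihood test, p adjusted over all 28459 TUs, called at an adjusted p under 0.05). At 6 hpd, all 78 members lay below NT, with a median log2 fold change of -0.31, a level 19.1% lower, against -0.036 for all TUs, of which 53.0% lay below 0. Of the members, 20 fell and 0 rose, where 9.2% of all TUs were called down and 6.61% up. Both 6 hpd libraries lay below both NT libraries in 68 of 78 members, against 31% of all TUs. The differences were small, from -0.46 to -0.067 with a median SE of 0.12, and 56 members had an unadjusted p under 0.05, all of them below NT, as had 17.05% of all TUs. DESeq2 called 10 members and 6.04% of all TUs down. In bulk RNA, fewer cells that transcribe a gene cannot be told apart from less RNA made per cell.

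These calls depended on which libraries were in the fit. Leaving out NT replicate 2 brought the median at 6 hpd to -0.15 (all TUs 0.0036), with 73 of 78 members below NT and 0 called by edgeR, where that fit called 4.19% of all TUs down. There, 7 of 78 members lay below NT at an unadjusted p under 0.05, as did 10.5% of all TUs. The 5 members above 0 were Rps23, Rps20, Rpl4, Rpl30 and Rpl39l, named after their values were seen, at 0.044, 0.035, 0.010, 0.0099 and 0.0096. Without NT replicate 1, 28 were called (8.72% of all TUs) and the median was -0.40. Without 6 hpd replicate 1 a single call remained (Rps9; 4.81% of all TUs), and without 6 hpd replicate 2 there were 0 (24 at an unadjusted p under 0.05; 5.15% of all TUs called), although the medians were -0.32 and -0.28. Leaving out 1 hpd replicate 1 or replicate 2, neither of which enters the fold change, left 7 and 9 calls (8.29 and 8.35% of all TUs), and leaving out 2 hpd replicate 1 gave 33 (10.2%).

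**Figure D3:**
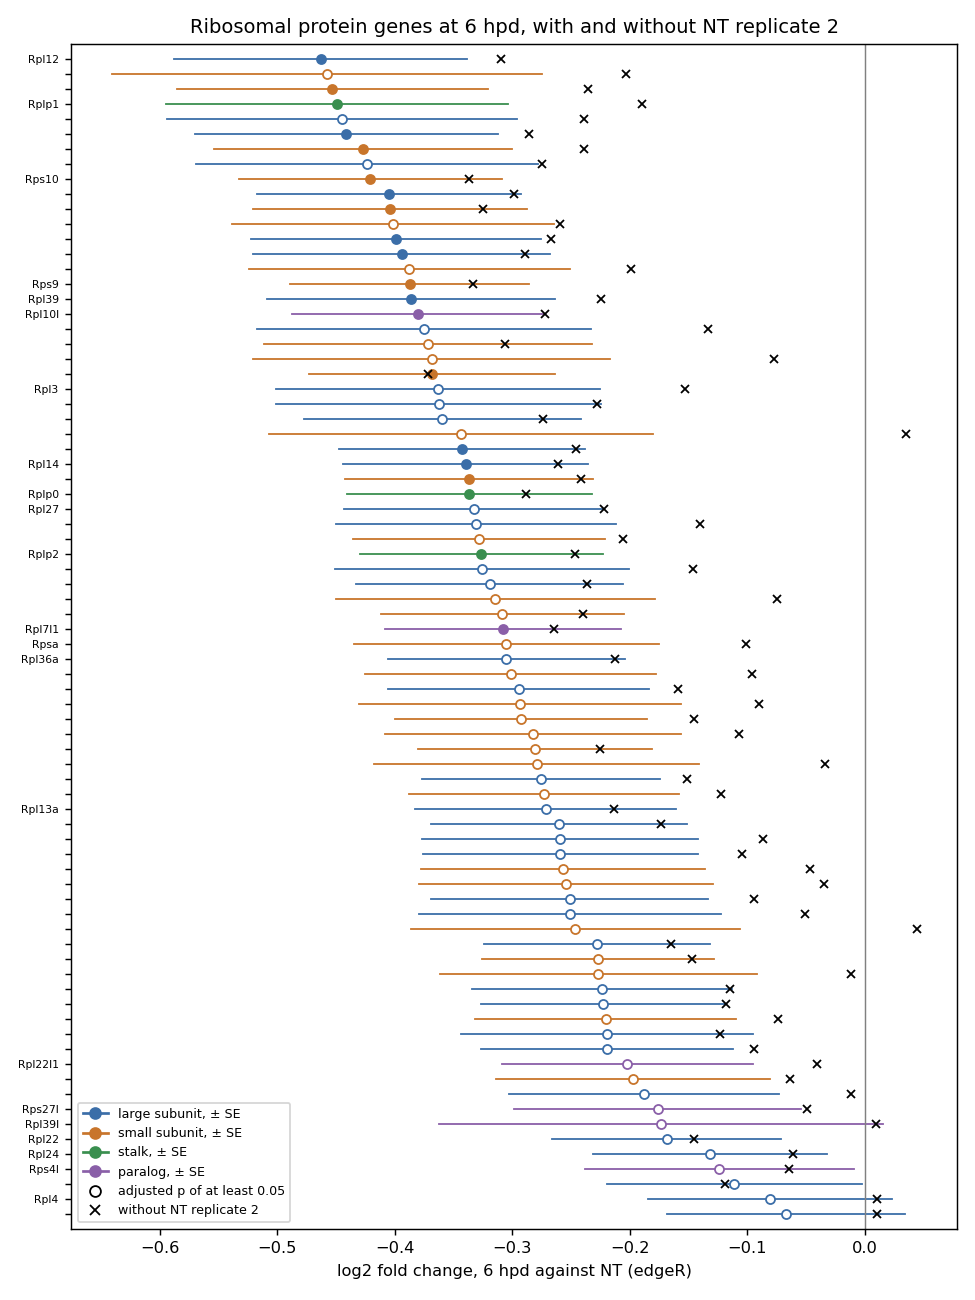
Log2 fold change at 6 hpd against NT for each of the 78 genes, ordered by size, with bars of 1 SE; filled circles have an adjusted p under 0.05 crosses give the estimate without NT replicate 2, and only genes picked by the naming rule are labelled. All circles lie below 0, from Rpl12 at -0.46 to -0.067, and 73 of the 78 crosses do.

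The medians of the earlier time points lay between 0 and that of 6 hpd. At 0.5, 1 and 2 hpd they were -0.079, -0.17 and -0.20, with all TUs at -0.022, -0.043 and -0.040, and 74, 76 and 77 members were below 0. At 0.5 hpd 0 members were called in either direction, by edgeR or DESeq2, with 1 below NT at an unadjusted p under 0.05 (5.29% of all TUs), where 0.787% of all TUs were called down and 0.527% up. At 1 hpd it was again 0 by both tools, with 5 below NT at an unadjusted p under 0.05 (9.88% of all TUs), against 3.61% down and 2.15% up. At 2 hpd 1 member fell (Rpl10l; 0 by DESeq2) and 0 rose, against 5.57% and 4.26%, and 10 of 78 members lay below NT at an unadjusted p under 0.05, a share near the 12.6% of all TUs. These shares depended on the fit. With the replicate number as a term in edgeR, 22 of 78 members at 1 hpd (13.1% of all TUs) and 39 at 2 hpd (16%) lay below NT at that p. With DESeq2 it was 1 (5.83%) and 3 (7.67%). Both libraries lay below both NT libraries in 7 members at 0.5 hpd (19% of all TUs), 36 at 1 hpd (26.7%) and 46 at 2 hpd (26.6%). Without NT replicate 2 the medians at the 3 times were 0.032, -0.014 and -0.077, with 22, 42 and 69 members below 0. In that fit 0 were called by edgeR, where 0.217, 1.57 and 2.77% of all TUs were called down, and 0, 0 and 1 members lay below NT at an unadjusted p under 0.05, against 4.06, 6.97 and 8.97% of all TUs. The direction at 0.5 hpd turned with this library, and likewise without 0.5 hpd replicate 1, at 0.029.

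Mean CPM was lower at each successive step from NT to 6 hpd in 57 of 78 members and in 6.48% of all TUs. With NT replicate 1 alone as NT, this held for 16 of 78 members and 4.73% of all TUs. No step on its own was called in any member by edgeR: the smallest adjusted p was 0.983 for 1 against 0.5 hpd, 0.998 for 2 against 1 hpd and 0.468 for 6 against 2 hpd, with 0 members at an unadjusted p under 0.05 in each. Of all TUs, 0.0984%, 0.197% and 0.517% were called down in these steps. In 6 against 1 hpd, a comparison without the NT libraries, the median was -0.14 (all TUs 0.00022), 75 members lay below 0 and 0 were called (8 of 78 below 0 at an unadjusted p under 0.05, near the 10.03% of all TUs), against 2.92% of all TUs called down. The joint test over the 4 time points also called 0 members (18 of 78 at an unadjusted p under 0.05, against 25.3% of all TUs, and smallest adjusted p 0.0798), where 12.3% of all TUs were called.

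**Figure D4:**
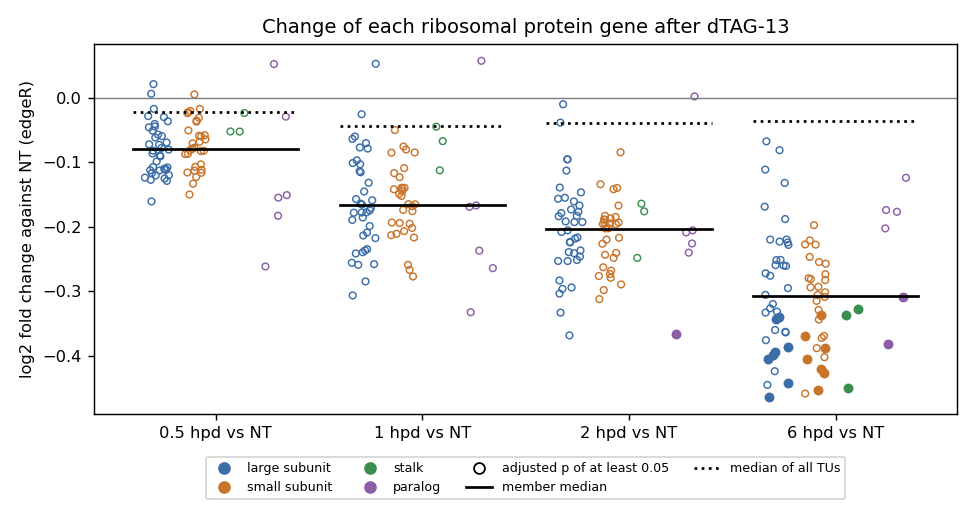
Log2 fold change of each gene against NT at the 4 time points, in columns by class; filled circles have an adjusted p under 0.05, solid lines are the medians of the 78 genes and dotted lines those of all TUs. The solid lines step from -0.079 to -0.31 while the dotted lines stay between -0.022 and -0.043.

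In the large subunit, 8 of 38 members fell at 6 hpd (9.2% of all TUs), with a median over the class of -0.30. The largest fall with all libraries in the fit was that of Rpl12, whose protein sits at the base of the stalk. Rpl12 measured 263 and 315 CPM (NT), 251 and 294 (0.5 hpd), 234 and 258 (1 hpd), 227 and 268 (2 hpd) and 214 and 206 (6 hpd). Both 6 hpd libraries were below all others, and the log2 fold change was -0.46 ± 0.12 (SE, adjusted p = 0.0200), or -0.31 (adjusted p = 0.262) without NT replicate 2. Rpl14 had the smallest p of this class in 6 against 1 hpd, at -0.27 ± 0.10 (SE, adjusted p = 0.168). It measured 182 and 198 CPM (NT), 176 and 199.6 (0.5 hpd), 178 and 184 (1 hpd), 165 and 179 (2 hpd) and 154 and 146 (6 hpd), so that it left the range of NT in both libraries at 2 and 6 hpd, with -0.34 ± 0.10 (SE, adjusted p = 0.0388) at 6 hpd, and -0.26 (adjusted p = 0.273) without NT replicate 2. Rpl39, an X-linked gene for one of the smallest proteins of the subunit, measured 107 and 129.6 CPM (NT), 101 and 117 (0.5 hpd), 96.0 and 105 (1 hpd), 84.4 and 99.1 (2 hpd) and 90.4 and 90.7 (6 hpd). Its lowest libraries were those at 2 hpd replicate 1 and at 6 hpd, with -0.39 ± 0.12 (SE, adjusted p = 0.0447) at 6 hpd, against -0.22 (adjusted p = 0.411) without NT replicate 2. The other falls of the class were those of Rpl38, Rpl11, Rpl13, Rpl18 and Rpl31, between -0.44 and -0.34. The unit of Rpl18 overlaps Fam83e on its strand.

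Rpl13a, Rpl3 and Rpl4, the members with the highest mean NT level per kb of TU, were not called. Rpl3, which encodes a protein near the peptidyl transferase centre, measured 803 and 1033 CPM (NT), 786 and 965 (0.5 hpd), 803 and 874 (1 hpd), 773 and 869.9 (2 hpd) and 741 and 686 (6 hpd). NT replicate 2 was the highest library and both 6 hpd libraries were below all others. The log2 fold change at 6 hpd was -0.36 ± 0.14 (SE, adjusted p = 0.0874), against -0.15 (adjusted p = 0.642) without NT replicate 2. Rpl13a, whose introns hold 4 snoRNAs, measured 316 and 333 CPM (NT), 279.7 and 330.5 (0.5 hpd), 278 and 296 (1 hpd), 269.8 and 304 (2 hpd) and 273 and 265 (6 hpd), with a value of -0.27 ± 0.11 (SE, adjusted p = 0.111) at 6 hpd, and -0.21 (adjusted p = 0.433) without NT replicate 2. Rpl4 measured 369 and 407 CPM (NT), 366 and 387 (0.5 hpd), 367 and 368 (1 hpd), 359 and 358 (2 hpd) and 388 and 346 (6 hpd). Its libraries overlapped between NT and 6 hpd, at -0.081 ± 0.10 (SE, adjusted p = 0.639), or 0.010 (adjusted p = 0.977) without NT replicate 2. Rpl27 and Rpl36a, among the smallest p at 2 and 0.5 hpd, were at -0.30 ± 0.11 (SE, adjusted p = 0.0998) and -0.16 ± 0.10 (SE, adjusted p = 0.709), and Rpl24 lay at -0.13 ± 0.099 (SE, adjusted p = 0.399) at 6 hpd, or -0.061 (adjusted p = 0.830) without NT replicate 2. Rpl22 was one of 2 members above NT at 1 hpd, at 0.053 ± 0.097 (SE, adjusted p = 0.822). Its unit of 68.8 kb overlaps Chd5 on the same strand, so its value mixes both genes.

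In the small subunit, 7 of 31 members fell at 6 hpd (9.2% of all TUs) with a median of -0.31. Rps9 had the smallest p of all members, and measured 307 and 322 CPM (NT), 284 and 296 (0.5 hpd), 292 and 279 (1 hpd), 265 and 284 (2 hpd) and 252 and 228 (6 hpd). All 8 treated libraries lay below both NT libraries, and the log2 fold change at 6 hpd was -0.39 ± 0.10 (SE, adjusted p = 0.0174), with -0.33 (adjusted p = 0.149) without NT replicate 2. Rps10, whose unit overlaps Nudt3 on its strand, measured 179 and 195 CPM (NT), 164 and 183 (0.5 hpd), 149 and 162 (1 hpd), 143 and 169 (2 hpd) and 139 and 140.5 (6 hpd). From 1 hpd onwards each library was below both of NT, the log2 fold change was -0.27 ± 0.11 (SE, adjusted p = 0.218) at 1 hpd and -0.42 ± 0.11 (SE, adjusted p = 0.0190) at 6 hpd, and -0.34 (adjusted p = 0.191) at 6 hpd without NT replicate 2. Rps18, whose NT replicate 2 was not the higher of the pair, was named after its values were seen. It measured 216 and 210.2 CPM (NT), 188 and 214 (0.5 hpd), 182 and 191 (1 hpd), 176 and 196 (2 hpd) and 162 and 168 (6 hpd), and its value at 6 hpd was nearly the same with all libraries, -0.37 ± 0.10 (SE, adjusted p = 0.0267), and without NT replicate 2, -0.37 (adjusted p = 0.118). Rps16 shows the opposite case and was also named after its values were seen, with -0.45 ± 0.13 (SE, adjusted p = 0.0305) with all libraries and -0.24 (adjusted p = 0.387) without NT replicate 2. Rps19, whose unit overlaps Arhgef1 and Cd79a on its strand, and Rps13 were also among the falls. Rpsa, which encodes a protein of the 40S subunit also known as the laminin receptor, measured 252 and 322 CPM (NT), 256 and 304 (0.5 hpd), 244 and 267 (1 hpd), 238 and 260.5 (2 hpd) and 244 and 220.0 (6 hpd). Its 2 NT libraries differed more than the 6 hpd libraries did, and at 6 hpd it was at -0.31 ± 0.13 (SE, adjusted p = 0.126), against -0.10 (adjusted p = 0.753) without NT replicate 2.

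The P stalk, formed by the proteins of Rplp0, Rplp1 and Rplp2, recruits translation factors to the large subunit, and all 3 genes fell at 6 hpd (9.2% of all TUs). Rplp0 measured 163 and 169.6 CPM (NT), 152 and 169 (0.5 hpd), 155 and 162 (1 hpd), 139 and 158 (2 hpd) and 134 and 129 (6 hpd). Both 6 hpd libraries were below all 8 others, at -0.34 ± 0.10 (SE, adjusted p = 0.0403), and Rplp0 is also one of the 3 members with the smallest p in 6 against 1 hpd, at -0.27 ± 0.10 (SE, adjusted p = 0.167). Rplp1 measured 139 and 189 CPM (NT), 144 and 179 (0.5 hpd), 143 and 160.1 (1 hpd), 128 and 148 (2 hpd) and 124 and 116 (6 hpd), with a wide gap between the NT libraries. Its value at 6 hpd was -0.45 ± 0.15 (SE, adjusted p = 0.0491). Rplp2 measured 199.6 and 217 CPM (NT), 188 and 214 (0.5 hpd), 200.1 and 204 (1 hpd), 179 and 190.3 (2 hpd) and 168 and 164 (6 hpd). It stood within the NT range in 1 or both libraries up to 1 hpd and below it at 2 and 6 hpd, with -0.33 ± 0.10 (SE, adjusted p = 0.0439) at 6 hpd and -0.28 ± 0.10 (SE, adjusted p = 0.144) in 6 against 1 hpd. Without NT replicate 2 the 3 values were -0.29 (adjusted p = 0.233) for Rplp0, -0.19 (adjusted p = 0.536) for Rplp1 and -0.25 (adjusted p = 0.293) for Rplp2, and without either 6 hpd library none was called. The unit of Rplp0 overlaps Gcn1 on its strand.

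The 6 paralogs had a median of -0.19 at 6 hpd, and 2 fell (9.2% of all TUs). Without NT replicate 2 their median was -0.057 with 0 called, where the large subunit had -0.16, the small subunit -0.15 and the stalk -0.25. Rpl10l, a retrogene related to X-linked Rpl10 and known for its role in the male germ line, was the earliest member called. It measured 94.6 and 107 CPM (NT), 89.7 and 87.7 (0.5 hpd), 82.3 and 77.7 (1 hpd), 82.8 and 73.4 (2 hpd) and 81.3 and 73.4 (6 hpd). All 8 treated libraries were below both NT libraries, with -0.33 ± 0.11 (SE, adjusted p = 0.0926) at 1 hpd, -0.37 ± 0.11 (SE, adjusted p = 0.0419) at 2 hpd and -0.38 ± 0.11 (SE, adjusted p = 0.0255) at 6 hpd, and without NT replicate 2 it lay at -0.28 (adjusted p = 0.281) at 2 hpd and -0.27 (adjusted p = 0.236) at 6 hpd. At 2 hpd the call was also lost without 2 hpd replicate 2, without either library of 1 hpd or 6 hpd, and in DESeq2 (adjusted p = 0.0851), while without 2 hpd replicate 2 a set of 7 other members was called (5.93% of all TUs). Its unit runs 24.1 kb past the annotated end. Rpl7l1, whose protein is a factor of 60S assembly rather than a subunit, was at -0.31 ± 0.10 (SE, adjusted p = 0.0496) at 6 hpd, and at -0.26 (adjusted p = 0.253) without NT replicate 2.

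The other 4 paralogs were not called at any time. Rpl22l1, which can take the place of Rpl22 in the ribosome, measured 70.5 and 85.2 CPM (NT), 62.9 and 67.1 (0.5 hpd), 66.0 and 66.1 (1 hpd), 66.6 and 68.4 (2 hpd) and 68.3 and 67.0 (6 hpd). It had the smallest p of all members at 0.5 hpd, -0.26 ± 0.11 (SE, adjusted p = 0.398), and both of its libraries were below NT at each time. At 6 hpd Rpl22l1 lay at -0.20, and at -0.041 without NT replicate 2. Rps27l, known as a p53 target, was at 0.058 ± 0.12 (SE, adjusted p = 0.847) at 1 hpd and -0.18 ± 0.12 (SE, adjusted p = 0.353) at 6 hpd, and Rpl39l, best known from the testis, at 0.052 ± 0.19 (SE, adjusted p = 0.973) and -0.17 ± 0.19 (SE, adjusted p = 0.570) at 0.5 and 6 hpd. Without NT replicate 2 the values at 6 hpd were -0.049 (adjusted p = 0.892) for Rps27l, 0.010 (adjusted p = 0.987) for Rpl39l and -0.065 (adjusted p = 0.849) for Rps4l. Rps4l measured 52.7 and 55.7 CPM (NT), 45.7 and 52.1 (0.5 hpd), 42.0 and 48.2 (1 hpd), 44.4 and 47.5 (2 hpd) and 52.8 and 46.8 (6 hpd), so that its 6 hpd libraries bracketed the lower NT library, with -0.12 ± 0.11 (SE, adjusted p = 0.497). Reads that match several near-identical copies can be lost by the authors' filter on mapping quality, or placed on a paralog or processed pseudogene, so that the exon part of all these values, and of the paralogs in particular, is uncertain.

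Features that the choice of members did not use were compared between members as a description, with calls to be read against the 9.2% of all TUs called down at 6 hpd. Of the 20 calls, 0 remained without NT replicate 2. The 28 members whose unit holds annotated snoRNAs (55 in all) had a median of -0.32 at 6 hpd with 6 calls, and the other 50 had -0.30 with 14 calls. The 18 with a C and T run of at least 8 at the start, of which 7 are printed above, had -0.33 with 7 calls, and the 41 with a shorter run -0.29 with 11. The 4 members on the X chromosome had -0.30 with 1 call. In 13 units another protein-coding gene lay on the same strand, and the other 65 gave -0.31 with 16 calls.

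Other genes that serve the ribosome were followed as lists, described by counts, to be read against the 9.2% of all TUs called down at 6 hpd. Of 9 snoRNA host genes without a protein product (of 11 listed), 3 fell at 6 hpd with a median of -0.29, and all 9 were below NT. Snhg7 was the lowest at -0.47 ± 0.10 (SE, adjusted p = 0.00560). Of 55 ribosome assembly factors (57 listed), 9 fell with a median of -0.18, among them Rrp1b at -0.50 ± 0.100 (SE, adjusted p = 0.00342), Fbl, the methyltransferase of box C/D snoRNPs, at -0.39 ± 0.095 (SE, adjusted p = 0.0116), and Nop56 at -0.36 ± 0.095 (SE, adjusted p = 0.0175). At 1 hpd their median was 0.0094, with Utp18, the one with the smallest p, at 0.30 ± 0.11 (SE, adjusted p = 0.148). Of 11 genes of RNA polymerase I (14 listed), which transcribes ribosomal RNA, 2 fell at 6 hpd: Ubtf, its upstream binding factor, at -0.56 ± 0.10 (SE, adjusted p = 0.00172), and Polr1b at -0.47 ± 0.096 (SE, adjusted p = 0.00364). Ubtf had already fallen at 1 hpd, at -0.51 ± 0.10 (SE, adjusted p = 0.00670).

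Of 21 translation factors and other genes with TOP mRNAs, 2 were called down at 6 hpd, a share near the 9.2% of all TUs, with a median of -0.11. They were Eef1d, an elongation factor subunit, at -0.40 ± 0.10 (SE, adjusted p = 0.0172), and Rack1, which encodes a protein bound to the 40S subunit, at -0.33 ± 0.10 (SE, adjusted p = 0.0416). At 1 hpd the median was -0.0030, with Eif2s3x at 0.31 ± 0.095 (SE, adjusted p = 0.0802). Among 10 regulators of ribosomal protein genes and their mRNAs (11 listed), the median was -0.066 and the 3 that fell were the MYC family genes. Mycn was at -1.35 ± 0.18 (SE, adjusted p = 0.000344) at 1 hpd and -1.03 ± 0.18 (SE, adjusted p = 0.00120) at 6 hpd. Myc lay at -2.07 ± 0.36 (SE, adjusted p = 0.00108) and Mycl at -1.66 ± 0.34 (SE, adjusted p = 0.00403) at 6 hpd, both low in counts, with 1.95 to 2.83 CPM in NT. None of the genes in these 5 lists rose at any time. Without NT replicate 2, the falls at 6 hpd numbered 0 among snoRNA hosts, 2 among assembly factors, 2 among genes of RNA polymerase I, 1 among TOP genes and 3 among regulators, and the MYC family genes, Ubtf and Polr1b were among those called. The medians in that fit were -0.18 for snoRNA hosts, -0.19 for assembly factors, -0.18 for RNA polymerase I, -0.077 for TOP genes and -0.082 for regulators, against -0.15 for the ribosomal protein genes, which were then no longer the lowest. Without 6 hpd replicate 1 or replicate 2, the falls numbered 1 and 0 among snoRNA hosts, 1 and 1 among assembly factors, 2 and 2 for RNA polymerase I, 0 and 0 among TOP genes and 3 and 3 among regulators.

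**Figure D5:**
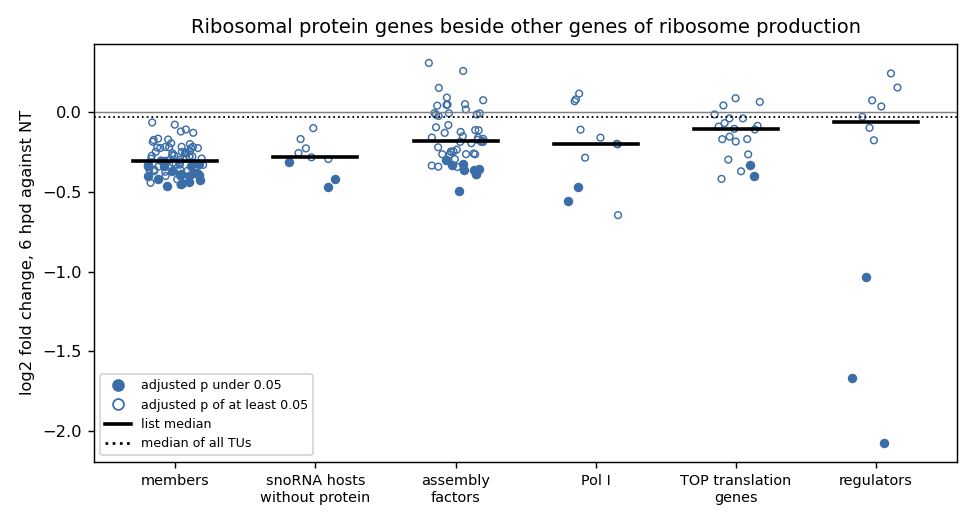
Log2 fold change at 6 hpd against NT for the 78 ribosomal protein genes and 5 lists of related genes; filled circles have an adjusted p under 0.05, solid lines are list medians and the dotted line is the median of all TUs. Medians run from -0.31 in the ribosomal protein genes to -0.066 in the regulators with all libraries, an order that turns without NT replicate 2, where the ribosomal protein genes have -0.15 and the assembly factors -0.19; the 3 low points among the regulators are Myc, Mycl and Mycn.

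Markers of the cell state moved over the same hours. Of the 7 pluripotency markers, 5 fell at 6 hpd (Pou5f1, Nanog, Esrrb, Klf4 and Dppa5a), Klf4 most, at -1.04 ± 0.17 (SE, adjusted p = 0.000698), and Dppa5a was at -1.04 ± 0.16 (SE, adjusted p = 0.00116) at 1 hpd. Without NT replicate 2, 2 of the 5 were called at 6 hpd (Pou5f1 and Klf4). Of the tested markers of other cell types, Pdgfrb rose at 6 hpd, at 1.71 ± 0.21 (SE, adjusted p = 4.9e-05), and Tfap2c fell, at -0.83 ± 0.13 (SE, adjusted p = 0.000449). Gata6, with 14 to 53 fragments per library, rose at 2 hpd, at 1.14 ± 0.31 (SE, adjusted p = 0.0295), and was at 0.85 ± 0.32 (SE, adjusted p = 0.0895) at 6 hpd. Gata4, the other endoderm marker tested, had 11 to 21 fragments and lay the other way, at -0.23 and -0.28 at 2 and 6 hpd. Col1a1 was at 0.65 at 6 hpd, and neither was called. The part of these markers in the values of the ribosomal protein genes was not tested.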

How the data were processed

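Strand-specific TT_chem-seq fragments of 10 libraries were aligned by the authors with BWA 0.7.17-r1188 to mm10, filtered on mapping quality with SAMtools 1.10 and cleared of duplicates with Picard 2.12.0 (versions per the submitters' processing notes). TUs were called by the authors with a hidden Markov model on pooled data and named by RefSeq genes, and what they deposited are unnormalized counts of fragments for each TU in each library. A TU entered the tests if 2 or more libraries had over 10 fragments of it (the 12320 left out hold 0.316% of fragments). The counts were analysed with edgeR 4.0.16 in R 4.3.3 with limma 3.58.1: TMM factors, 1 fit over all 5 groups, the quasi-likelihood F test, and Benjamini-Hochberg adjustment over all TUs at 0.05. The SE is the log2 fold change divided by the root of F, and the fit's biological coefficient of variation was 10.05%. CPM uses TMM library sizes, with a prior count of 2 on the log2 scale. DESeq2 1.42.0 served as an alternative, and tables were made in Python 3.11.15 with pandas 2.3.3. The procedure was tested on simulated data with changes planted in scattered TUs, which held no shift shared by a set of genes between libraries. Within groups, the chi-square of the replicates' counts per degree of freedom was 2.69 to 9.08, so no pair was a library deposited more than once.

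The genes and lists were chosen with earlier results of these data known. Named members were the 3 with the smallest p in each direction at each time and in 6 against 1 hpd, the stalk, Rpsa, the paralogs, and the 3 highest and 3 lowest per kb in NT. Of each other list, the gene with the smallest p at 1 and at 6 hpd was named; others were added after their values were seen. TUs are far longer than the genes, so counts include introns, RNA past the annotated end and, in some units, RNA before the annotated start. Duplicate removal and the mapping-quality filter can lower counts of short, strongly transcribed or repeated sequence. Alternatives were DESeq2, RLE factors, total-count scaling, other count filters, a fit of only the libraries compared, a replicate block, leaving out each library and, chosen after seeing the data, leaving out units that overlap another coding gene. Results of some genes are not reported here.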

Additional observations from a re-analysis of the deposited data

How the results depend on the processing

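At 0.5 hpd, 0 ribosomal protein genes were called down under any alternative. At 6 hpd, against 20 (9.2% of all TUs), there were 10 with DESeq2 (6.04% of all TUs), 10 with RLE factors (8.59%), 10 without the count filter (6.33%), 43 with total counts (10.9%), 52 with a fit of only the libraries compared (11.7%) and 46 with a replicate block (14.2%), and leaving out 1 library each gave 0 to 33 (0 where 4.19 or 5.15% of all TUs were called, 33 where 10.2% were). At 2 hpd, against 1, there were 0 with DESeq2, RLE factors, no count filter and only the libraries compared, 3 with total counts (7.26% of all TUs) and 9 with the replicate block (9.6%), and 0 to 7 leaving out 1 library each (7 where 5.93% of all TUs were called). At 1 hpd, against 0, there was 1 with total counts (4.33% of all TUs), 1 with only the libraries compared (5.05%) and 2 with the replicate block (6.14%). With the filter set at a mean of at least 50 fragments, 29 were called down at 6 hpd (11.8% of all TUs) and 1 at 2 hpd (7.59%). The causes were not tested. Total counts moved the median of all TUs to -0.13, -0.16 and -0.13 at 1, 2 and 6 hpd. Over the libraries left out, the members' median spanned -0.20 to 0.032 for 0.5 hpd, -0.28 to -0.014 for 1 hpd, -0.32 to -0.077 for 2 hpd and -0.40 to -0.15 for 6 hpd. The median at 0.5 hpd turned to 0.032 with NT replicate 2 left out and to 0.029 with 0.5 hpd replicate 1 left out. At 6 hpd, Rpl39l spanned -0.42 to 0.041 and Rpl4 -0.15 to 0.010. NT replicate 2 left out turned both (Rpl39l to 0.0096), as did 6 hpd replicate 1 for Rpl39l and 6 hpd replicate 2 for Rpl4 (0.00094). Over the values of named members under the alternatives, 290 kept direction and call, 77 lost a call, 20 gained one and 4 turned. That tally covers only members picked by the naming rule, and so leaves out Rps16, Rps18, Rps20, Rps23 and Rpl30. Without units that overlap another coding gene, 16 of 65 members were called down at 6 hpd. With 2 replicates per group, the numbers are only shared between groups. The correlations of replicate differences over 14959 TUs ran from 0.375 to 0.663 between NT, 0.5, 1 and 2 hpd. Pairs with 6 hpd had 0.0544 to 0.298. All 20 members called at 6 hpd were also called under the replicate block. Rpl13a, Rpl27, Rpl3 and Rpl36a gained a call under it.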
